A study of Mus musculus with 2 samples.

Results

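MHC class I molecules display peptides cut from the proteins inside a cell to CD8 T cells. The immunoproteasome subunits Psmb8 and Psmb9 replace constitutive catalytic subunits and change which peptides are cut, Tap1 and Tap2 pump the peptides into the endoplasmic reticulum, Tapbp (tapasin) loads them, and the heavy chains H2-K1 and H2-D1 reach the cell surface together with the light chain B2m. Nlrc5 is the transactivator of class I promoters, and Cd274 (PD-L1) is the surface ligand that restrains T cells through PD-1. Endothelial cells (ECs) carry class I constitutively, and the whole set is known to respond to interferons. These 10 genes, of 21951 genes in the count matrix, were followed here across the cells of a single pooled library. They had been chosen from their measured levels in these same cells, so the values below describe them and test nothing.

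C57BL/6 pups had been induced with 40 mg/kg of 4-hydroxytamoxifen at postnatal day 3. Liver and heart were dissociated 3 days later (age given as P6-P7), and the cells stained with CD31 and 1 hashtag antibody per condition, sorted and loaded on 1 10x Genomics port. The 3 conditions per tissue were control, Cdh5-CreERT2 with iSuRe-Cre, and Cdh5-CreERT2 with iSuRe-HadCre. Cdh5-CreERT2 is a tamoxifen-inducible Cre driven by an endothelial promoter. iSuRe-Cre is a transgene on chromosome 17 that keeps expressing Cre together with the membrane reporter MbTomato once recombined, and iSuRe-HadCre is an allele in the Rosa26 locus that removes its own Cre after acting. The study's text places both alleles in this experiment over floxed Notch1, which the labels do not mention, and the genotype of the controls was not given in the sources used here. The labels give CD31+ MbTomato+ as the sort, whereas the design text speaks of presence or absence of Tomato. Since each hashtag group was 1 sample with no known number of pups, no p-value could be given, and every interval covers counting error only.

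Of 14348 barcodes that passed the quality filters, 7704 were Cdh5-positive and 1988 of these carried exactly 1 group hashtag. They comprised 254 control, 435 iSuRe-Cre and 311 iSuRe-HadCre cells from heart, and 54 control, 858 iSuRe-Cre and 76 iSuRe-HadCre cells from liver. Another 5585 Cdh5-positive barcodes had no hashtag and were given no group, and 131 with 2 or more hashtags were left out. The median number of UMIs (unique molecular identifiers, each 1 captured RNA molecule) per cell was 9100, 16379 and 7322 in control, iSuRe-Cre and iSuRe-HadCre heart, and 7980, 8765 and 7384 in the same order in liver. Levels are given as UMIs per 1000000 UMIs summed over the cells of a group (CPM), with an exact Poisson 95% interval.

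All groups carried the endothelial markers, and Cdh5 ranged from 738 CPM in iSuRe-Cre liver to 1310 CPM in control heart. Notch1 was at 138 CPM in control heart, and at 12.6 CPM with iSuRe-Cre and 23.2 CPM with iSuRe-HadCre. In liver it was at 160, 21.4 and 30.7 CPM in the same order. The reporter did not follow the labels in this way. WPRE, a transgene sequence counted with the genes, was at 562 CPM in control heart, 63.5 with iSuRe-Cre and 1055 with iSuRe-HadCre, and at 396, 105 and 1070 CPM in liver. The 10 other cell types gated in the library held 50.8 to 122 CPM of it, so the cells labelled iSuRe-Cre were at the level of unrelated cells for WPRE. Tomato was at 97.7, 25.5 and 269 CPM in heart and 78.5, 33.8 and 192 CPM in liver, against 3.85 to 19.2 CPM in the other cell types. The iSuRe-Cre groups, described as sorted for MbTomato, were thus the lowest of the 3 conditions for both sequences. Log-normalised WPRE was above 0.5 in 145 of 435 iSuRe-Cre heart cells and 379 of 858 iSuRe-Cre liver cells. Ratios of the iSuRe-Cre cells above 0.5 to those at or below it had intervals below 1 for 6 of the 10 genes in heart and 3 in liver, above 1 for 0. The share of all genes with such intervals was not taken, so these counts cannot show a trait of the 10 genes. H2-K1 was at 450 against 561 CPM in heart (0.802, 0.751 to 0.857) and 495 against 577 CPM in liver (0.859, 0.811 to 0.909). The liver groups differed in their makeup. The sinusoidal gate held 3 of 54 control cells, 477 of 858 iSuRe-Cre cells and 9 of 76 iSuRe-HadCre cells, and Stab2, a scavenger receptor of liver sinusoids, stood at 30.4, 1446 and 387 CPM. The antibody that marked iSuRe-Cre liver was also read on most passing barcodes, with a median count of 28 against 1 to 3 for the other 5 hashtags, and was therefore given a minimum of 140 in place of 25.

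Of the 10 genes, 7 lie on chromosome 17 in the MHC region (GRCm38): Tapbp at chr17:33915899-33929292, H2-K1 at chr17:33996017-34000347, Psmb9 at chr17:34181987-34187764, Tap1 at chr17:34187553-34197225, Psmb8 at chr17:34197721-34201454, Tap2 at chr17:34203527-34216321 and H2-D1 at chr17:35262730-35267499. B2m lies at chr2:122147686-122153083, Nlrc5 at chr8:94434356-94527272 and Cd274 at chr19:29367455-29388095. The bases before the RefSeq start (GRCm38.p6) of H2-K1, on the minus strand at chr17:34000348-34000497, and of B2m, on the plus strand at chr2:122147537-122147685, are shown because these 2 genes were above control in all 4 comparisons and the stretches hold no annotated exon. By their intervals, Tap1, Psmb8 and Psmb9 were also above control in all 4 comparisons, but their stretches are not shown. Capitals mark matches, on either strand, to the letters GGGATTCCC (as bound by NF-kB), AANNGAAA (as bound by interferon regulatory factors), TGACGC and CCAAT. These and TTCNNNGAA were chosen after the sequences had been seen.
H2-K1: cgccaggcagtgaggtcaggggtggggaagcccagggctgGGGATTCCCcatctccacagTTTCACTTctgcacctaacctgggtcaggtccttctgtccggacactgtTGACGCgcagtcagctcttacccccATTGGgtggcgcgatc
B2m: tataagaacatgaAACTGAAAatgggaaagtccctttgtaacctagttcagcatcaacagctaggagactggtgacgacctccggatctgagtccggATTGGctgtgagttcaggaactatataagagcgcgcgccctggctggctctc
Promoter windows, from 250 bases before to 50 after the start, were matched for 8 of the 10 genes, all but Nlrc5 and Tap2. In H2-K1 the 4 motifs began 110, 90, 41 and 16 bases before the start, and in H2-D1 the same 4 began 170, 150, 101 and 76 bases before it, in the same order. GGGATTCCC was found in 0.353% of 32851 promoter windows, AANNGAAA in 23.9%, TGACGC in 7.4%, CCAAT in 37.4% and TTCNNNGAA in 8.3%. Of these 5, the window of Psmb8 held TTCNNNGAA alone and that of Cd274 AANNGAAA alone, beginning 175 bases before its start. CCAAT alone was found in those of Tap1, Tapbp and Psmb9. The windows of Tap1 and Psmb9, which are transcribed in opposite directions, shared 275 of their bases. The CCAAT match of Tap1 and that of Psmb9 are the same bases of this shared stretch, read from either strand. A match is a run of letters and was not tested as a binding site.

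The heavy chain H2-K1 was lowest in the controls in both tissues. It stood at 144 CPM (95% interval 131 to 158) in control heart, 524 (508 to 540) with iSuRe-Cre and 370 (349 to 392) with iSuRe-HadCre. In liver it stood at 144 CPM (116 to 177), 543 (528 to 558) and 416 (369 to 467). For iSuRe-Cre the ratio to control was 3.63 (3.29 to 4.02) in heart and 3.76 (3.06 to 4.69) in liver, and for iSuRe-HadCre 2.56 (2.29 to 2.87) and 2.88 (2.27 to 3.7). The order control, iSuRe-HadCre, iSuRe-Cre was the same in heart and liver, with no overlap of intervals between the 3 conditions of a tissue.

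H2-D1 did not follow the same order. It was at 650 CPM in control heart, 910 with iSuRe-Cre and 564 with iSuRe-HadCre, which put iSuRe-HadCre below control (ratio 0.867, 0.812 to 0.925) and iSuRe-Cre above it (1.4, 1.33 to 1.47). Within capillary-gated and large-vessel-gated cells of heart, the iSuRe-HadCre ratio was 0.94 (0.869 to 1.02) and 0.957 (0.817 to 1.12), with intervals that included 1. In liver H2-D1 was at 481, 800 and 722 CPM, above control with both alleles, with ratios of 1.66 and 1.5. Counting H2-K1 UMIs per H2-D1 UMI within a group, which needs no library total, gave 0.222 (0.199 to 0.246) in control heart against 0.576 (0.555 to 0.598) with iSuRe-Cre and 0.656 (0.608 to 0.707) with iSuRe-HadCre. In liver it gave 0.3 (0.234 to 0.381) against 0.679 and 0.576. The balance between the 2 heavy chains thus differed from control with both alleles in both tissues. H2-K1 and H2-D1 are close paralogs, so reads that match both could have been dropped or misplaced by the counting, and the ratio is uncertain to that extent.

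The light chain B2m, shared by the class I molecules, followed the order of H2-K1. It was at 459 CPM in control heart, 1569 with iSuRe-Cre and 729 with iSuRe-HadCre, and at 442, 1337 and 855 CPM in liver. The ratios to control were 3.42 (3.24 to 3.62) and 1.59 (1.49 to 1.7) in heart, and 3.02 (2.68 to 3.42) and 1.93 (1.67 to 2.24) in liver. Over the whole groups the gap between the 2 alleles was wider for B2m than for H2-K1. In capillary cells of heart iSuRe-HadCre over iSuRe-Cre was 0.514 (0.487 to 0.542) for B2m and 0.73 (0.671 to 0.793) for H2-K1, but in large-vessel cells of heart it was 0.453 (0.393 to 0.522) and 0.437 (0.358 to 0.532), and so no wider for B2m, as in those of liver (0.813 and 0.74). Over the whole heart groups B2m UMIs per H2-K1 UMI were 3.18 in control heart, 3 with iSuRe-Cre and 1.97 with iSuRe-HadCre.

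**Figure D1:**
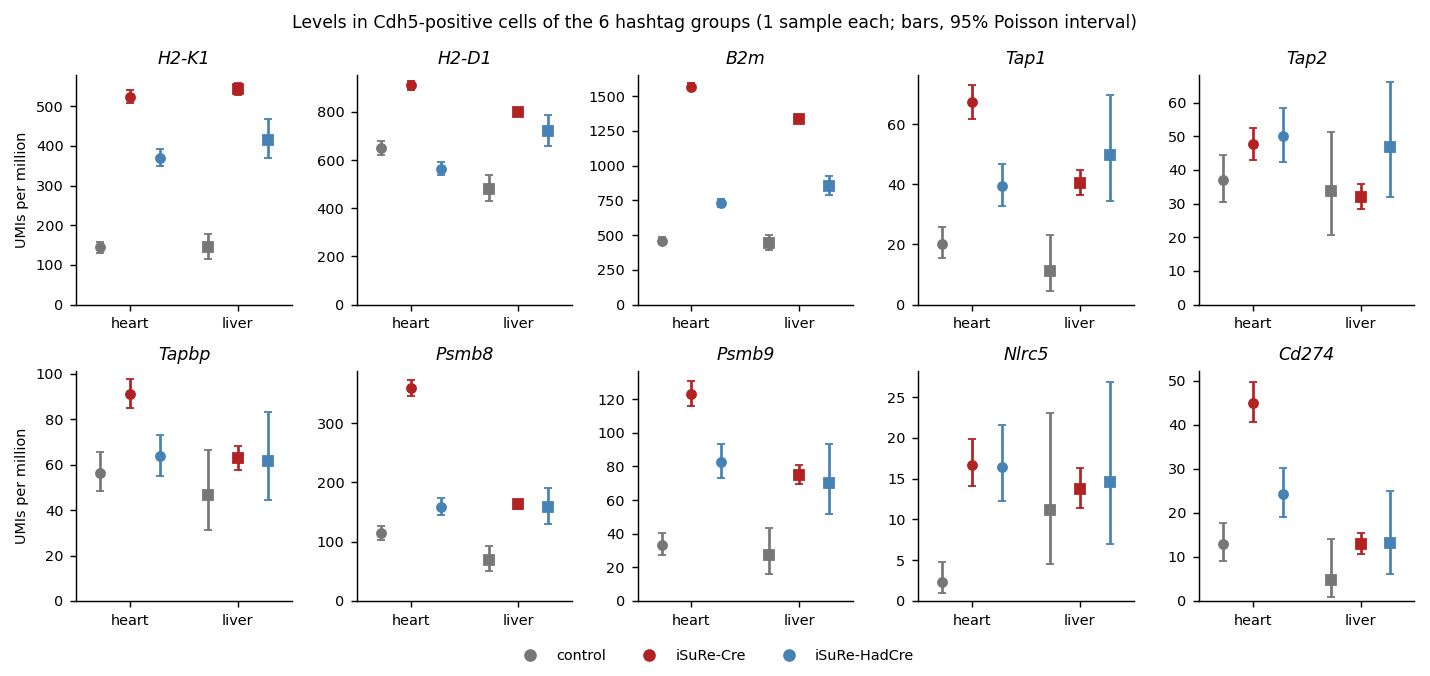
CPM (y axis, from 0) of the 10 genes in the 6 hashtag groups, circles for heart and squares for liver, with control in grey, iSuRe-Cre in red and iSuRe-HadCre in blue. Bars are 95% Poisson intervals. H2-K1 and B2m are lowest in control and highest in iSuRe-Cre in both tissues, whereas H2-D1 in iSuRe-HadCre heart (564) lies below control heart (650).

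Among the peptide-cutting subunits, Psmb8 was at 115 CPM in control heart, 359 with iSuRe-Cre and 159 with iSuRe-HadCre, and at 68.9, 163 and 158 CPM in liver. Psmb9 was at 33.3, 123 and 82.8 CPM in heart and at 27.2, 74.8 and 70.3 CPM in liver. Both subunits were thus above control in all 4 comparisons, Psmb8 least so in iSuRe-HadCre heart (1.38, 1.2 to 1.59). The constitutive subunits Psmb5, Psmb6 and Psmb7 lay between 0.939-fold and 1.37-fold of control, and 0 of the 3 reached 1.5-fold in any of the 4 comparisons. Psmb8 UMIs per Psmb5 UMI were 0.608 (0.53 to 0.696) in control heart, 1.6 (1.51 to 1.7) with iSuRe-Cre and 0.863 (0.764 to 0.976) with iSuRe-HadCre, and 0.344, 0.858 and 0.711 in liver. Psmb9 UMIs per Psmb6 UMI were 0.146, 0.424 and 0.354 in heart and 0.134, 0.305 and 0.281 in liver.

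The transporter subunits differed from each other. Tap1 was at 20.1 CPM in control heart, 67.3 with iSuRe-Cre and 39.3 with iSuRe-HadCre, and at 11.2, 40.6 and 49.8 CPM in liver, where the control value rested on 7 UMIs. Tap2 was at 37, 47.7 and 50 CPM in heart and at 33.7, 31.9 and 46.9 CPM in liver. Over whole groups it reached 1.5-fold in 0 of the 4 comparisons, but in heart its ratios of 1.29 (1.04 to 1.61) and 1.35 (1.05 to 1.74) were above 1. Within capillary cells of heart the ratios were 1.55 (1.21 to 1.99) and 1.73 (1.29 to 2.34). Within large-vessel cells of heart they were 0.693 (0.351 to 1.35) and 0.752 (0.401 to 1.42). Tapbp was at 56.4, 91.3 and 63.8 CPM in heart and at 46.5, 62.8 and 61.5 CPM in liver. Only iSuRe-Cre heart was clear of control for Tapbp (1.62, 1.37 to 1.92), and in the other 3 comparisons the interval included 1.

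The transactivator Nlrc5 was sparse. It had 7 UMIs in control heart (2.31 CPM, 0.929 to 4.76), 139 in iSuRe-Cre (16.7 CPM) and 51 in iSuRe-HadCre heart (16.4 CPM), with ratios of 7.25 (3.42 to 18.4) and 7.11 (3.21 to 18.6), and the 2 alleles could not be separated (0.982, 0.698 to 1.36). Within capillary cells of heart the ratios were 11.3 (4.3 to 42.1) and 7.31 (2.48 to 29.2), on 4 UMIs in control. Within large-vessel cells of heart they were 1.13 (0.191 to 7.71) and 1.68 (0.383 to 10.1), on 3 UMIs in control. In liver Nlrc5 was at 11.2, 13.7 and 14.6 CPM with 7 UMIs in control, and both intervals included 1. Cd274 was at 12.9 CPM in control heart, 45 with iSuRe-Cre and 24.2 with iSuRe-HadCre, with ratios of 3.5 (2.51 to 5) and 1.88 (1.26 to 2.84). In liver it was at 4.81, 13 and 13.2 CPM. The control liver value rested on 3 UMIs, the ratios of 2.69 (0.9 to 13.2) and 2.74 (0.684 to 15.7) had intervals that included 1, and a difference in liver was not detectable at this depth.

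Counted against the background of all genes with at least 50 UMIs over both groups, 8 of 10 members were at least 1.5-fold higher in iSuRe-Cre than in control heart, where 8.92% of 10651 genes were, and 0 were at least 1.5-fold lower, where 9.72% were. In iSuRe-HadCre heart 6 of 10 were higher (background 11.5%) and 0 lower (2.32%). In iSuRe-Cre liver 7 of 10 were higher (14.9%) and 0 lower (16.6%). These 7 include Cd274, which reached 50 UMIs only through iSuRe-Cre (121 UMIs against 3) and whose interval included 1. In iSuRe-HadCre liver 7 of 10 were higher, of which 5 were among the 7 members with at least 50 UMIs (6.84%), and 0 were lower (7.32%). The rest of the higher members were Tap1 (34 UMIs against 7) and Cd274 (9 against 3), and the interval of Cd274 included 1. The members' median ratio was 3.38, 1.73, 2.53 and 1.93 in these 4 comparisons, beside 0.96, 1.09, 0.957 and 1 for all genes, which in iSuRe-HadCre heart is a shift of 0.12 on the log2 scale. The first 2 comparisons share control heart and the last 2 share control liver. The members had been chosen from these contrasts, so the counts are read as a description.

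**Figure D2:**
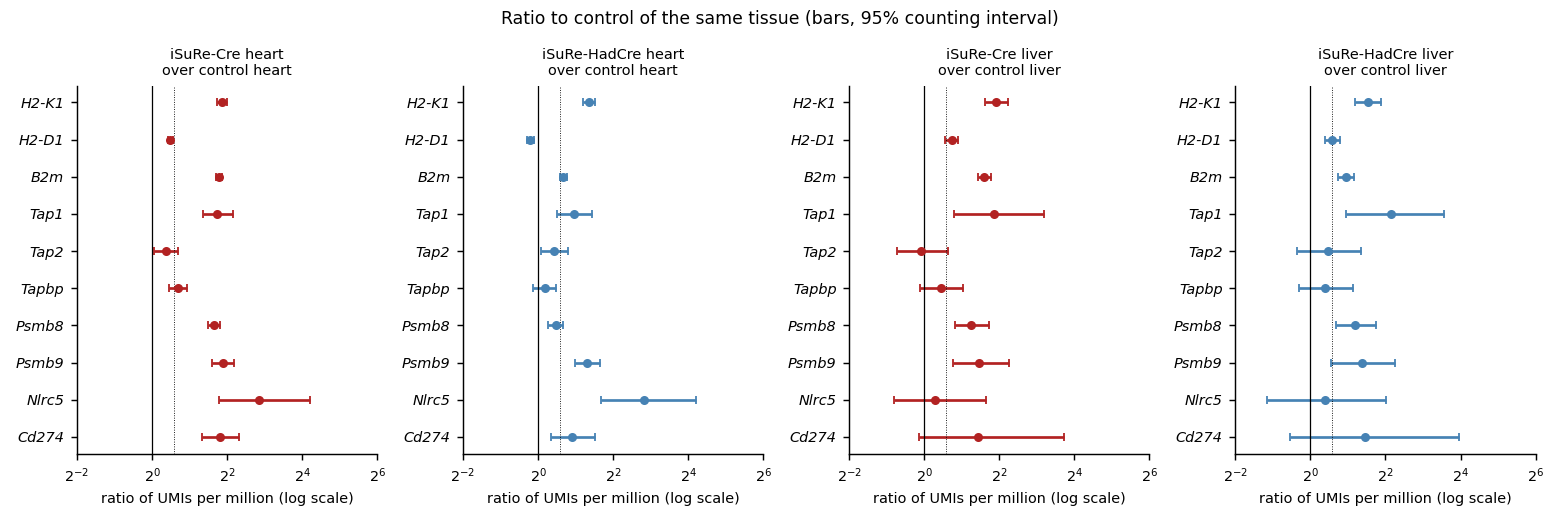
Ratio of CPM to control of the same tissue (x axis, log scale) for the 10 genes, with 95% counting intervals, a solid line at 1 and a dotted line at 1.5. H2-K1 lies between 2.56 and 3.76 in the 4 comparisons, H2-D1 lies below 1 in iSuRe-HadCre heart alone (0.867), and the intervals of Nlrc5 and Cd274 are wide in liver.

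Set directly against each other, iSuRe-HadCre heart was lower than iSuRe-Cre heart by at least 1.5-fold for 5 of 10 members (H2-D1, B2m, Tap1, Psmb8 and Cd274), where 5.4% of genes were, and higher for 0, where 20.8% were. Psmb8 had the lowest ratio, at 0.442 (0.401 to 0.487), followed by B2m at 0.465 (0.444 to 0.486), while all genes had a median of 1.15 in this comparison, a shift of 0.20 on the log2 scale. With only cells above 0.5 for log-normalised WPRE kept, 1 member, Nlrc5, was higher in iSuRe-HadCre heart, at 1.67-fold. In liver the difference was smaller. B2m alone was at least 1.5-fold lower in iSuRe-HadCre than in iSuRe-Cre liver (0.64, 0.588 to 0.695), and 0 members were higher, beside a background of 14.0% lower and 14.0% higher. Of the members' intervals 7 of 10 included 1, and the share of all genes with such intervals was not taken. The liver comparison sets 76 cells against 858 that differ in their share of sinusoidal cells. Within large-vessel cells of liver B2m was at 0.813 (0.713 to 0.924) and H2-K1 at 0.74 (0.611 to 0.889), and no member was 1.5-fold lower. Tap1 was at 1.73-fold (0.906 to 3.1), Psmb9 at 1.53-fold (0.963 to 2.34) and Nlrc5 at 1.81-fold (0.597 to 4.63) there, on 15, 27 and 6 UMIs in iSuRe-HadCre and with intervals that included 1.

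The ratios to control were also taken within endothelial gates, again among genes with at least 50 UMIs over both groups. In capillary cells of heart, defined by genes such as Tcf15 and Fabp4 (203 control, 333 iSuRe-Cre and 205 iSuRe-HadCre cells), 9 of 10 members were at least 1.5-fold higher in iSuRe-Cre, where 10.0% of all genes in the gate were, and 7 of 9 in iSuRe-HadCre (12.7%). H2-K1 had ratios of 3.63 and 2.65 there, B2m 3.59 and 1.84, and Psmb8 3.57 and 1.78. Large-vessel cells of heart, defined by genes such as Gja5 and Vwf, were few (33, 26 and 52 cells). In them 4 of 6 members were higher in iSuRe-Cre (11.9%) and 2 of 5, H2-K1 and B2m, in iSuRe-HadCre (16.9%). Psmb8 was at 2.12-fold (1.53 to 2.98) and 0.9-fold (0.615 to 1.32) there, and Tap2 at 0.693-fold (0.351 to 1.35) in iSuRe-Cre. In large-vessel cells of liver (27, 131 and 28 cells) 6 of 8 members were higher in iSuRe-Cre (12.6%) and 4 of 4 in iSuRe-HadCre (9.96%), and Nlrc5 was at 0 UMIs in control. H2-K1 had ratios of 3.11 (2.36 to 4.16) and 2.3 (1.66 to 3.22) in them, and Cd274, at 2 UMIs in control, 1.15 (0.267 to 10.4) and 0.969 (0.0703 to 13.4). The part of the sinusoidal share in the ratios of the whole liver groups was not tested.

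**Figure D3:**
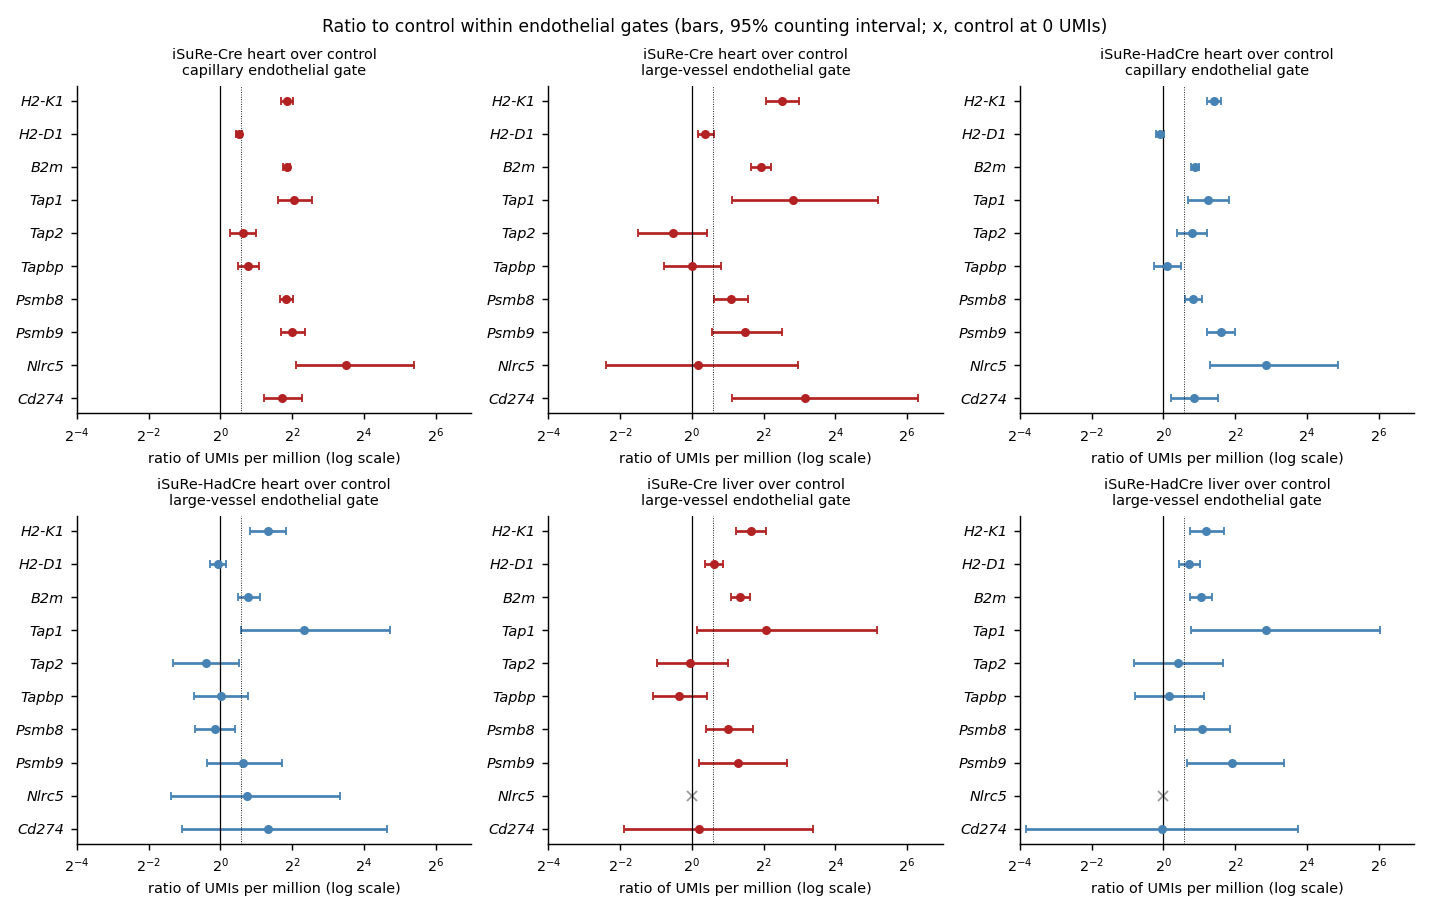
Ratio to control (x axis, log scale) within capillary cells of heart and large-vessel cells of heart and liver, with 95% counting intervals. H2-K1 and B2m lie above 1 in all 6 panels. A cross at 1 stands in for Nlrc5 where control had 0 UMIs and no ratio was drawn.

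The endothelial gates themselves differed. In iSuRe-Cre heart, the 46 endocardial cells, marked by genes such as Npr3, were below the capillary cells for all 10 members, each with an interval below 1, as 18.9% of all genes had, with Cd274 at 8.35 against 51.1 CPM (ratio 0.163, 0.0651 to 0.34), Psmb9 at 31 against 141 CPM, Psmb8 at 95.4 against 412 CPM and H2-K1 at 371 against 534 CPM. The sinusoidal cells of iSuRe-Cre liver lay on either side of the large-vessel cells of the same group, at 537 against 686 CPM for H2-K1, 1533 against 1303 for B2m and 16.9 against 9.4 for Cd274. Endocardial cells of the other heart groups numbered 10 and 12 and were not described.

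The share of cells with a UMI moved with the level but also with depth. H2-K1 was seen in 67.3% of control, 92.2% of iSuRe-Cre and 77.2% of iSuRe-HadCre heart cells, and in 25.3%, 56% and 44.4% once each cell was thinned to 2000 UMIs. Cd274 was seen in 11.8%, 30.6% and 14.8% of heart cells, and in 2.6%, 7.77% and 4.29% after thinning. Chondrocyte-gated cells, with 15460 UMIs in the median cell against 16379 in iSuRe-Cre heart, had a Cd274 UMI in 0 of 240 cells (exact binomial upper bound 1.53%) and a H2-K1 UMI in 7.08%.

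Across the library, H2-K1 and B2m were highest in the iSuRe endothelial groups, and the other gates fell far apart. For B2m the macrophage gate, at 722 CPM (687 to 757), overlapped iSuRe-HadCre heart at 729 CPM (700 to 760). Cdh5-positive barcodes without a hashtag lay between control and iSuRe-Cre for H2-K1 (237 CPM) and B2m (557 CPM). H2-K1 was at 5.87 CPM in chondrocyte-gated, 7.76 in keratinocyte-gated, 8.01 in cardiomyocyte-gated, 13 in peripheral neuron-gated, 15.6 in mesenchymal, 15.9 in smooth muscle and 26.7 in neural progenitor or glia cells. Macrophage-gated cells had 140 CPM, hepatocyte-gated cells 121 and neutrophil-gated cells 120, all near the controls. Psmb8 was at 172 CPM in macrophage-gated and 90.3 in neutrophil-gated cells, and at 15.7 CPM or less in every other gate. Cd274 was at 21 CPM in macrophage-gated and 11 in neutrophil-gated cells, and at 3.03 CPM or less elsewhere. Free RNA, read from barcodes with 10 to 100 UMIs, held 174 CPM of H2-K1, 437 of B2m, 78 of Psmb8 and 8.67 of Nlrc5. That was more than in most non-endothelial gates, and at or above the controls for H2-K1 (144 CPM in both tissues), for Psmb8 in liver (68.9) and for Nlrc5 in heart (2.31), with B2m close to both controls (459 and 442). Free RNA was also above control liver for Tap1 (15.2 against 11.2 CPM) and Psmb9 (29.3 against 27.2 CPM). With free RNA subtracted at 30% of the UMIs of each group, the H2-K1 ratios to control were 5.13 and 3.45 in heart and 5.34 and 3.96 in liver, for iSuRe-Cre and iSuRe-HadCre in that order. The true share of free RNA in the groups was not tested.

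**Figure D4:**
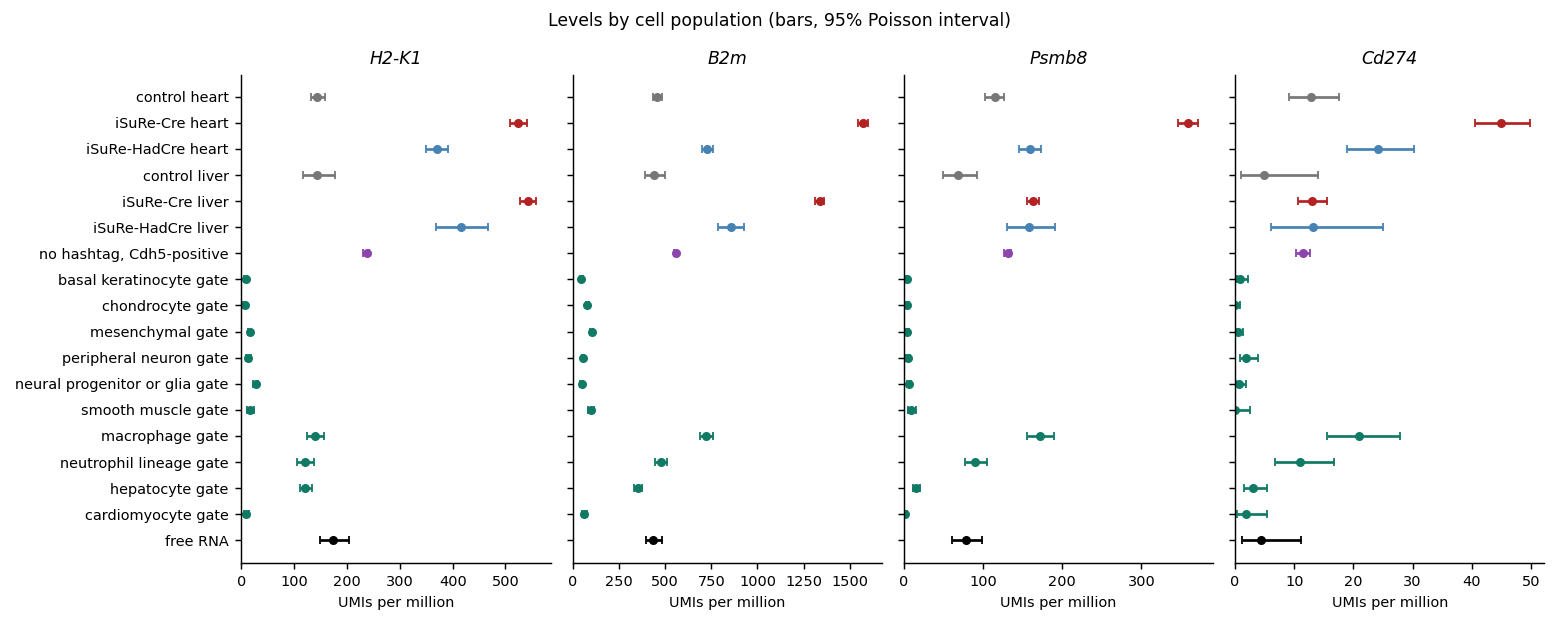
CPM (x axis, from 0) of H2-K1, B2m, Psmb8 and Cd274 in the 6 hashtag groups, in Cdh5-positive barcodes without a hashtag, in 10 other gated cell types and in free RNA, with 95% Poisson intervals. The iSuRe groups hold the highest H2-K1 values (370 to 543), and of the other gates the macrophage and neutrophil gates are high for all 4 genes, the hepatocyte gate for H2-K1 and B2m alone.

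Leukocyte RNA was measured in the groups because myeloid cells carry the members. The 5 pan-leukocyte markers summed to 80.5, 56.2 and 97 CPM in control, iSuRe-Cre and iSuRe-HadCre heart, with all 5 detected in each and Tyrobp or Fcer1g the most abundant, and to 234, 472 and 151 CPM in liver, led by Fcer1g. The 5 neutrophil markers summed to 168, 34.6 and 57.7 CPM in heart and to 593, 3408 and 41 CPM in liver, where S100a8 led in iSuRe-Cre with 1439 CPM. The 5 macrophage markers summed to 80.5, 60.8 and 71.5 CPM in heart and to 11.2, 191 and 60 CPM in liver, and 4 of the 5 were at 0 in control liver. The 6 lymphocyte markers summed to 1.98, 2.41 and 2.9 CPM in heart, with Cd3e at 0 in all 3 groups, and to 84.9, 17.3 and 0 CPM in liver. The 5 hepatocyte markers summed to 461 CPM in iSuRe-Cre heart, led by Alb, against 80.9 and 57.4 CPM in the other heart groups, and to 51.3, 399 and 43.9 CPM in liver. With every cell that had a UMI of a leukocyte marker left out, H2-K1 was 3.56-fold control in iSuRe-Cre heart, 2.65-fold in iSuRe-HadCre heart, 3.47-fold in iSuRe-Cre liver and 2.6-fold in iSuRe-HadCre liver. Cd274 was then 4.34-fold and 2.06-fold in heart but 0.656-fold and 0.305-fold in liver, where 20 control cells were left.

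The rest of the pathway was taken by whole lists, beside which 8.92% and 11.5% of all genes were at least 1.5-fold higher in iSuRe-Cre and iSuRe-HadCre heart, and 14.9% and 6.84% in the liver groups. Of 9 further genes of peptide supply and loading, 4 were at least 1.5-fold higher in iSuRe-Cre heart (Psmb10, the third immunoproteasome subunit, at 2.41-fold, and the proteasome activator genes Psme1, Psme2 and Psme3) and 1 in each of the other comparisons with control (Tapbpl in iSuRe-HadCre heart, Psme1 in iSuRe-Cre liver, and Psme2 of 7 measured in iSuRe-HadCre liver). The chaperones Calr, Canx and Pdia3 lay between 0.901-fold and 1.14-fold of control in all 4. Of the 10 other class I genes measured in iSuRe-Cre heart 9 were higher, against 3 of 8 in iSuRe-HadCre heart, 8 of 11 in iSuRe-Cre liver and 3 of 4 in iSuRe-HadCre liver. H2-Q4 was higher in all 4, at 2.6, 2.66, 2.33 and 1.83-fold. H2-T23, the mouse Qa-1 heavy chain, was higher in 3, at 1.91-fold in iSuRe-Cre heart and 2.86 and 2.74-fold in liver, and at 1.24-fold (0.998 to 1.53) in iSuRe-HadCre heart. Fcgrt, the class I-like receptor that recycles IgG, went the other way in heart (0.552 and 0.633) and was at 3.17-fold in iSuRe-Cre liver. The class I genes share long stretches of sequence, so the single H2-Q and H2-T values are uncertain.

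Of 18 regulators, 6 were higher and 0 lower in iSuRe-Cre heart (all genes 8.92% and 9.72%), and 7 were higher and 1 lower in iSuRe-Cre liver (14.9% and 16.6%). In iSuRe-HadCre heart 2 of 17 were higher, which is near the 11.5% of all genes, and in iSuRe-HadCre liver 4 of 12 (6.84%). Stat2, an interferon signal transducer, was higher in all 4 comparisons, at 1.82, 1.5, 2.24 and 2.19-fold. Irf1, an activator of class I promoters, was near control in heart (0.93 and 1.16) and higher in liver (2.5 and 2.44). Of Rfx5, Rfxap and Rfxank, which bind class I promoters together with Nlrc5, only Rfx5 passed 1.5-fold, at 1.7-fold in iSuRe-Cre heart and 0.62-fold in iSuRe-Cre liver, on few UMIs and with intervals that included 1. The 20 interferon-stimulated genes were all at least 1.5-fold higher in iSuRe-Cre heart and in iSuRe-Cre liver, with medians of 6.65 and 3.08, against 15 of 19 in iSuRe-HadCre heart (1.8) and 8 of 11 in iSuRe-HadCre liver (1.55). Isg15, a ubiquitin-like modifier, was at 152, 1280 and 269 CPM in heart and 136, 392 and 132 CPM in liver. In iSuRe-HadCre liver Isg15 was at 0.967-fold of control (0.711 to 1.32), whereas Iigp1, an interferon-inducible GTPase, was at 1.89-fold (1.47 to 2.44) and Rtp4 at 1.74-fold (1.02 to 3.07).

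The other checkpoint ligands did not share a direction. Of 10, 2 of the 6 measured in iSuRe-Cre heart were higher and 1 lower, beside 8.92% and 9.72% of all genes, and 4 of 6 were higher and 1 lower in iSuRe-Cre liver, beside 14.9% and 16.6%. In iSuRe-HadCre heart 1 of 7 (Cd86) was higher, near the 11.5% of all genes, and 0 were lower (2.32%). In iSuRe-HadCre liver 0 of 4 passed 1.5-fold either way (6.84% and 7.32%). Pdcd1lg2 (PD-L2) was at or under 1.46 CPM in all 6 groups. Lgals9 was 2.24-fold control in iSuRe-Cre heart and 1.97-fold in iSuRe-Cre liver, Cd47 1.72-fold and 2.01-fold, and Vsir was lower in both, at 0.386 and 0.628. Class II genes, which present peptides to CD4 T cells, had few UMIs in either control. For Cd74, the invariant chain, ratios to control in heart were 4.16 (1.68 to 13.3) with iSuRe-Cre and 28.9 (12.1 to 90.3) with iSuRe-HadCre. In liver they were 4.34 (1.98 to 11.9) and 8.07 (3.47 to 23). H2-Aa was at 4.14-fold and 23.1-fold in heart and 11.2-fold and 27.4-fold in liver, on 3 and 1 UMIs in the controls. The intervals of H2-DMa included 1 in all 4. Cd74 was at 1.65, 6.86 and 47.7 CPM in heart and 9.61, 41.8 and 77.6 CPM in liver, and H2-Ab1 was at 1.32, 5.06 and 15.5 CPM in heart and 0, 15.7 and 33.7 CPM in liver. Both were thus highest in iSuRe-HadCre in both tissues, where the pan-leukocyte markers were highest in heart (97 CPM) and lowest in liver (151 CPM), and the part of leukocytes in them was not tested.

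The iSuRe-Cre transgene and 7 of the members are on chromosome 17, so 79 other genes of the MHC region were listed. Of the 47 measured in iSuRe-Cre heart, 4 were at least 1.5-fold higher (Gpsm3, Apom, Tnf and Gm16181) and 1 lower (Notch4), with a median of 0.999, and of 49 in iSuRe-Cre liver 7 were higher and 3 lower (Notch4, Fkbpl and Bag6), with a median of 1.08. The counts of higher genes were near the shares of all genes, 8.92% in heart and 14.9% in liver, and those of lower genes were under them, 9.72% and 16.6%. The genes are named because of their values. The most abundant neighbours, Rps18, Clic1 and Ddah2, were at 1.23, 1.28 and 1.08-fold in iSuRe-Cre heart. The part of the transgene's position in the members' levels was not tested.

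**Figure D5:**
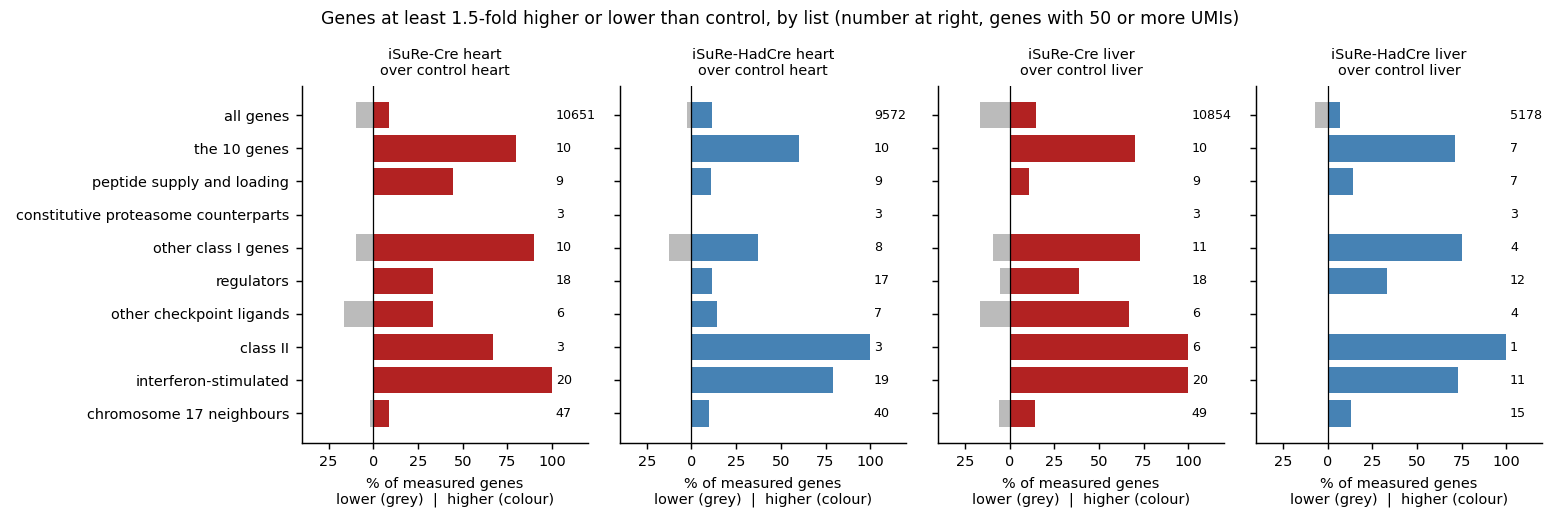
Percent of measured genes of each list at least 1.5-fold higher (colour) or lower (grey) than control in the 4 comparisons, with the number of genes that had 50 or more UMIs at the right. Interferon-stimulated genes reach 20 of 20 in both iSuRe-Cre comparisons, the constitutive proteasome subunits 0 of 3 in all 4, and the chromosome 17 neighbours 4 of 47, 4 of 40, 7 of 49 and 2 of 15, where 8.92%, 11.5%, 14.9% and 6.84% of all genes were higher.

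Over the 17 population profiles (6 groups, the barcodes without a hashtag and 10 gates), the log2 level of H2-K1 was most like that of Bst2 (Pearson r 0.969), B2m (0.967), Rtp4 (0.962), Lgals9 (0.961) and Parp9 (0.96) among 11330 genes. Psmb8 was most like Psmb9 (0.989), Trim30a (0.979), Dtx3l (0.978), Rtp4 (0.975) and Sp110 (0.973). Cd274 was most like Il18bp (0.953), Psmb9 (0.943), Irf7 (0.939), Psmb8 (0.938) and Dtx3l (0.932). Nlrc5 was 190th in likeness to H2-K1, at 0.864. The profiles come from 1 library and share its free RNA, so these values describe the library.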

How the data were processed

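Per the labels, 1 pooled library gave a gene expression and a hashtag read-out. The submitters' processing notes name Cell Ranger 7.1.0, Seurat and GRCm38. The deposited matrix holds raw UMI counts by the authors, not normalized, for 21951 genes and 13 tag features in 2755147 barcodes. Barcodes with over 2000 and under 75000 gene UMIs, over 500 genes and mitochondrial and haemoglobin shares under 5% were kept. Cdh5-positive meant a natural log of 1 plus 10000 times the share above 0.9. The study's limit of 0.5 on WPRE was applied only as an alternative. A hashtag counted from 25 UMIs (140 for iSuRe-Cre liver), and barcodes with 2 hashtags or 2 gates were left out in place of a doublet caller. Gates required 10 marker UMIs (5 for short lists) from 3 markers and 5 times the share in free RNA, and endothelial gates 3 UMIs from 2 markers and 2 times that share. Counts were summed per group and given per 1000000 UMIs (CPM), with exact Poisson, binomial (Clopper-Pearson) and conditional ratio intervals at 95%, which cover counting error only, since each group was 1 sample and the spread between pups is unknown. A gene counted as higher or lower from 1.5-fold, among genes with at least 50 UMIs. Likeness used log2 of CPM plus 10 for genes with at least 500 UMIs. The members and gene lists were chosen with earlier results of these data known. The intervals were tried on counts simulated with Poisson error alone, which is the error they assume. This trial therefore says nothing of spread between cells or pups. Python 3.11.15, numpy 2.4.6, scipy 1.17.1 and pandas 2.3.3 were used. Alternatives varied hashtag, Cdh5, WPRE, mitochondrial and gene limits, scaling, free RNA and leukocyte-marker cells.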

Additional observations from a re-analysis of the deposited data

Results flagged for a closer look

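H2-D1 stood on opposite sides of control in different comparisons with control, with intervals clear of 1. It was 0.867-fold control in iSuRe-HadCre heart but 1.5-fold in iSuRe-HadCre liver and 1.4-fold in iSuRe-Cre heart. Each group was 1 sample, so the difference between the groups was not tested, and within capillary and large-vessel cells the value in iSuRe-HadCre heart was 0.94 (0.869 to 1.02) and 0.957 (0.817 to 1.12).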

How the results depend on the processing

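The number of members at least 1.5-fold above control was 7 to 9 in iSuRe-Cre heart, 3 to 8 in iSuRe-HadCre heart, 5 to 9 in iSuRe-Cre liver and 4 to 8 in iSuRe-HadCre liver over all alternatives. It moved by over 1.5 times where 2-fold replaced 1.5-fold in iSuRe-HadCre heart (3 in place of 6) and where leukocyte-marker cells were left out of iSuRe-HadCre liver (4 in place of 7), which left 20 control cells. Against iSuRe-Cre heart, 1 member in place of 0 was higher in iSuRe-HadCre heart with WPRE above 0.5 asked of the iSuRe groups or of every group. Against iSuRe-Cre liver, 1 in place of 0 was higher in iSuRe-HadCre liver with every cell weighted alike, with free RNA subtracted at 30%, with fewer than 6000 genes per cell, without leukocyte-marker cells or without sinusoidal cells, and 3 were within large-vessel cells. For ratios, the setting of cells thinned to 2000 UMIs took the values of equal weighting and was no separate check. Leaving out sinusoidal cells, taking 1 gate per tissue, asking WPRE of every group and the 30% subtraction were chosen after seeing the data. No member at least 1.5-fold from the other group with an interval clear of 1 changed sides. H2-K1 over control ran from 3.1 to 5.13 and from 2.27 to 3.45 in iSuRe-Cre and iSuRe-HadCre heart, and H2-D1 in iSuRe-HadCre heart from 0.795 to 0.94. In liver, Cd274 ran from 0.656 to 9.58 and from 0.305 to 7.93, and Nlrc5 from 0.646 to 6.04 and from 0.625 to 7.82. Of the ratios of single members under all settings but these 4, 757 stayed within the counting interval of the main value and 81 did not, with equal weighting and thinning both counted though their values are the same. Under these 4 settings 192 stayed within it and 44 did not. The cause was not tested. No paired analysis was possible because each group was 1 hashtag sample.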

Other observations

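Of the 79 other genes of the MHC region, Notch4, an endothelial Notch receptor, was at 47.9 CPM in control heart, 3.73 with iSuRe-Cre and 52.9 with iSuRe-HadCre, and at 35.3, 4.82 and 35.1 CPM in the same order in liver. Hspa1a and Hspa1b, inducible heat shock genes of the same region, were at 2.81-fold and 3.92-fold control in iSuRe-HadCre heart and at 1.05-fold and 0.983-fold in iSuRe-Cre heart. Apom, which encodes a carrier of sphingosine 1-phosphate, was at 3.96, 25.4 and 3.87 CPM in heart. The 5 hepatocyte markers summed to 80.9, 461 and 57.4 CPM in the same order, and the part of hepatocyte RNA in Apom was not tested. Notch4, Hspa1a, Hspa1b and Apom were named after their values were seen.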
